A study of Rattus norvegicus with 12 samples.

Results

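Csf1r, Adgre1 and 8 further genes of colony stimulating factor signalling and of Mφ identity were followed through the rat cervix, in cells dispersed before birth and outside pregnancy, with Mφs present and after they had been taken out. The 10 genes were found by name in the array files, where Adgre1 still carries its older name Emr1. They are read by 12 probes of the 30367 on the array, and they are 10 of its 26612 genes. Csf1r and Aif1 have 2 probes each, and every other gene has 1.

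All 12 animals were adult female Sprague Dawley rats, and each gave 1 array. Pregnant rats were taken on day 21 after breeding (D21), usually a day short of birth, and nonpregnant (NP) rats in proestrus. The cervix of every rat was freed of blood by perfusion with saline and dispersed with collagenase. In 3 D21 rats and 3 NP rats the dispersed cells were frozen as they were, here called whole cervix. In the other D21 and NP rats, 3 of each, cells that bound the ED1 antibody were first drawn off with magnetic beads, and the cells left over are the Mφ-depleted cervix. Whole cervix was not taken through the antibody and bead steps, so the loss of Mφs and the handling cannot be told apart, nor can fewer cells of a type and less RNA in each cell. Nothing in the sources ties a rat of one group to a rat of another.

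Mφs are tissue phagocytes that depend on the receptor tyrosine kinase CSF1R, which binds the cytokines CSF1 and IL34 and carries signals for survival and growth. ADGRE1, an adhesion G protein-coupled receptor, is a classical surface marker of rodent Mφs. CSF2RA and CSF2RB form the receptor for GM-CSF, and CSF3R is the receptor for G-CSF on neutrophils. TYROBP (DAP12) is an adaptor that passes signals from receptors such as TREM2, AIF1 (IBA1) is an actin-binding protein of Mφs and microglia, CD53 is a tetraspanin of leukocytes in general, and CD4 is found on T helper cells and, in the rat, also on monocytes and Mφs.

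The probes of the 2 genes named first show what was read. They are 60-base oligonucleotides, given here 5′ to 3′ as the array files print them, with positions on rn4. The first Csf1r probe lies at chr18:57105231-57105932 on the plus strand, with its ends 702 positions apart, and the second at chr18:57093036-57093095, upstream of it on the same strand. The Adgre1 probe is placed at chrUn:64821266-64823251, on sequence not assigned to a chromosome, with its ends 1986 positions apart. The array files mark no exon or intron, and none is assigned here.
Csf1r first probe: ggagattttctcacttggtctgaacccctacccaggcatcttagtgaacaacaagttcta
Csf1r second probe: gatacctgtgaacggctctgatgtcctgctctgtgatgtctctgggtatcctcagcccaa
Adgre1 probe: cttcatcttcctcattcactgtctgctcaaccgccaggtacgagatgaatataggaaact

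The promoters of both genes are shown as sequence only, and no link from them to the levels below was tested. They are RefSeq sequence of the GRCr8 build, from 250 bases before to 50 after the annotated start, at chr18:56834129-56834428 for Csf1r and chr9:2329190-2329489 for Adgre1, both on the plus strand. Capitals mark GAGGAA and GGGGAA on either strand (TTCCTC and TTCCCC when read on the other strand), letters that hold the GGAA core bound by ETS factors such as PU.1, which the myeloid gene Spi1 encodes.
Csf1r promoter: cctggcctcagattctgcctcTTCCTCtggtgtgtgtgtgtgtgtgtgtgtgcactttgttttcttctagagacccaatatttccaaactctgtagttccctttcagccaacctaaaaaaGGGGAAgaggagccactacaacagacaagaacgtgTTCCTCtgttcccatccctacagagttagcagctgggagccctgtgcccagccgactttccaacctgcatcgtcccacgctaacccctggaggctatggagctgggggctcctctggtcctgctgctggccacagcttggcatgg
Adgre1 promoter: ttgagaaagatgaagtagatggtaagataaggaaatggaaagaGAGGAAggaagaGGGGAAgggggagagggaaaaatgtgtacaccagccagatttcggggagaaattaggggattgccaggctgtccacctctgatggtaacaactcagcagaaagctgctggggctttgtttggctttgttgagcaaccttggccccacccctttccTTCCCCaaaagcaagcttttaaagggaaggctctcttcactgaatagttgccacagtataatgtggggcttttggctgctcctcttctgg

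Csf1r has GAGGAA at 2 places and GGGGAA at 1, and Adgre1 has GAGGAA at 1 place and GGGGAA at 2. Neither motif is rare: of 33469 rat promoters of this length, 27.6% hold GAGGAA, 22.9% hold GGGGAA and 6.57% hold both. Promoter sequence was at hand for 5 of the 10 genes, the others being Csf2ra, Csf3r and Cd53, and GAGGAA is present in each of the 5. A match of letters is a description of the sequence and shows no binding.

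Levels are given as the log2 of the processed intensity relative to the 75th percentile of the same array, so that 0 is the 75th percentile. They compare rats for 1 probe, not 1 gene with another. The scanner software rates each spot as well above background or not, and a gene entered a comparison if 1 of the 2 groups had it well above background in all of its 3 rats. Differences were tested with limma on all 12 arrays. A gene is called where its unadjusted p is below 0.01 and its groups differ 2-fold or more, which is the threshold of the study's methods, and p-values adjusted over all genes tested are given beside the calls. By this rule 10% of 14262 genes tested were higher in whole than in depleted cervix of D21 rats and 13.6% of 13419 in NP rats, while 7.71% and 10.8% were lower, and the median differences over all these genes were -0.06 and -0.04. These shares and medians are what each gene list below stands beside.

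Over the series, the scanner rated 44.9% to 61.8% of the probes of an array as well above background, and the 75th percentile of intensity ranged from 290 to 1171. The highest and the lowest percentile were both in Mφ-depleted cervix, in D21 rat 1 and NP rat 7. No spot of the 10 genes was saturated, and no 2 arrays held identical values. Of 15 Mφ markers, 12 to 14 were well above background in each whole cervix. The summed level of the list, in multiples of the 75th percentile, was 69.1 to 103 in whole cervix and 5.10 to 16.3 in Mφ-depleted cervix. Between 5 and 10 of the markers remained well above background in the depleted samples.

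Csf1r was high in every whole cervix and near background in every depleted one. In whole cervix the level was 2.01, 1.53 and 1.58 in D21 rats 5, 6 and 7, and 1.44, 1.07 and 1.80 in NP rats 8, 9 and 10. In Mφ-depleted cervix it was -4.41, -4.86 and -5.83 in D21 rats 1, 2 and 4, and -4.74, -6.01 and -4.99 in NP rats 5, 6 and 7. No depleted sample came near a whole one, and only D21 rat 1 and NP rat 5 among the depleted samples were well above background. The order of the group means was D21 whole, NP whole, D21 depleted and NP depleted, and within whole and within depleted cervix the rats overlapped. Whole cervix was higher by 6.74 on the log2 scale in D21 rats (SE 0.41, adjusted p = 6.6e-06) and by 6.68 in NP rats (SE 0.41, adjusted p = 1.8e-06). With normexp background correction, which adds an offset of 50 to the intensities, the differences were 3.27 and 4.21, both called.

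Adgre1 showed the same split. Its level was 0.95, 0.21 and 0.37 in whole cervix of D21 rats 5, 6 and 7, and 0.81, 0.61 and 1.26 in NP rats 8, 9 and 10. In depleted cervix it was -5.97, -7.27 and -5.96 in D21 rats 1, 2 and 4, and -7.07, -5.54 and -5.22 in NP rats 5, 6 and 7, none of them well above background. Since the depleted side gives only a bound, D21 rats had at least 37.0-fold more Adgre1 signal in whole cervix, and NP rats at least 39.6-fold more. Such a bound sets the mean of the bright group against, on each dim array, the lowest signal rated well above background, or the probe's own signal where that is higher. The differences fitted by limma were 6.91 (adjusted p = 1.2e-05) and 6.83 (adjusted p = 4.3e-06) on the log2 scale. They use the depleted values below background, and their p-values do not test the bounds. Where an adjusted p stands beside a bound below, it is likewise that of the fitted difference. The bounds hold for the processed intensities alone: with normexp the fitted differences were 2.47 and 3.97, which on a linear scale is less than the bounds, and both were called.

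**Figure D1:**
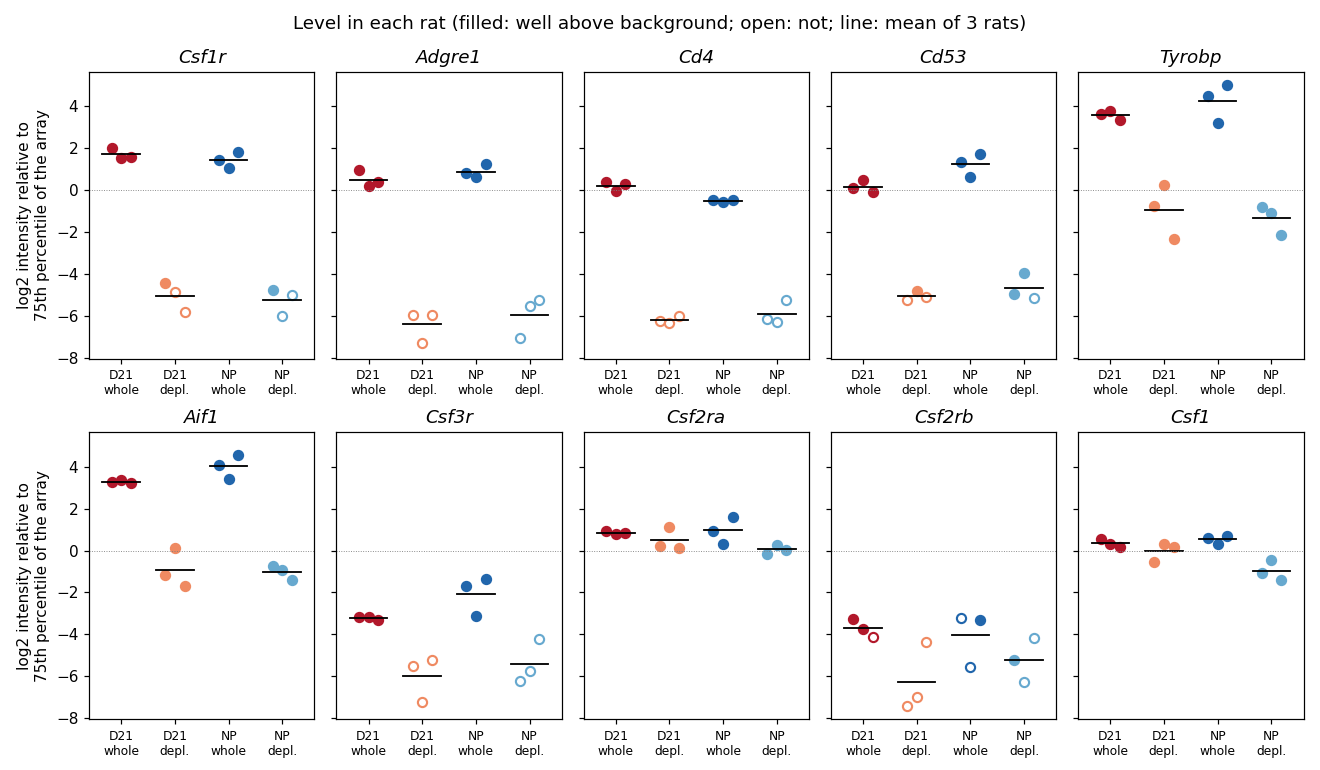
Level of each of the 10 genes in each rat, in log2 intensity with the array's own 75th percentile as 0 (vertical axis), by group (horizontal axis), with 1 point for each of 3 rats and a line at their mean. Filled points are well above background and open points are not. Csf1r, Adgre1, Cd4, Cd53, Tyrobp and Aif1 drop in both depleted groups with no overlap, Csf3r drops to background, and in D21 rats the depleted samples overlap with whole cervix for Csf2ra and Csf1.

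The 2 probes of Csf1r gave changes of different size. The second probe was at 0.55, -0.04 and -0.31 in whole cervix of D21 rats 5, 6 and 7 and at -0.24, -1.34 and -0.10 in NP rats 8, 9 and 10. In depleted cervix it was at -2.88, -2.84 and -4.74 in D21 rats 1, 2 and 4 and at -5.48, -3.49 and -4.44 in NP rats 5, 6 and 7, with 2 of 3 and 1 of 3 arrays well above background. Whole cervix was higher by 3.55 (SE 0.60, adjusted p = 0.0032) in D21 rats and by 3.91 (SE 0.60, adjusted p = 0.00056) in NP rats, so both probes were called in both comparisons.

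Within an array, the first probe minus the second was 1.64 ± 0.22 in D21 whole cervix and -1.55 ± 0.47 in D21 depleted cervix (SD, n = 3). In NP rats it was 2.00 ± 0.38 in whole and -0.77 ± 1.64 in depleted cervix. The groups did not overlap in either case, and an exact two-sided permutation test gave p = 0.1 for each, the smallest that 3 rats against 3 allow (adjusted p = 0.2 over 4 such comparisons). In D21 rat 1, the only depleted sample with both probes well above background, the difference was -1.53. For the 2 probes of Aif1 the same difference was 1.06 ± 0.02 in whole and 0.60 ± 0.61 in depleted cervix of D21 rats, and 0.86 ± 0.06 and 1.14 ± 0.48 in NP rats, with overlapping values and an exact permutation p of 0.4 in both.

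**Figure D2:**
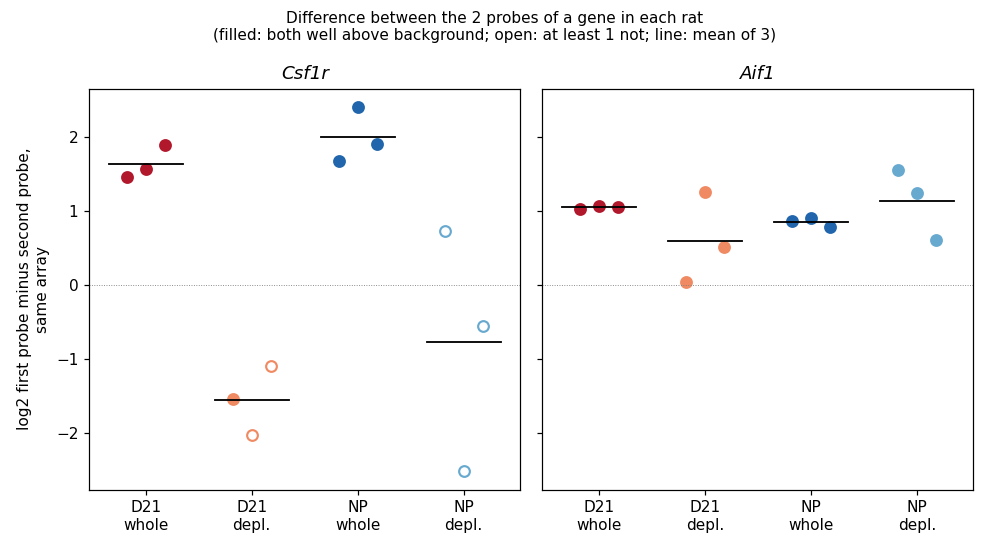
Difference in log2 level between the first and second probe of Csf1r and of Aif1 on the same array (vertical axis), by group, with 1 point for each rat and a line at the mean of 3. For Csf1r it lies between 1.47 and 2.41 in the 6 whole samples and between -2.52 and 0.74 in the depleted ones, where 1 sample alone has both probes well above background, and for Aif1 the groups overlap.

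Cd4 showed the same step between whole and depleted cervix as Csf1r and Adgre1. Within whole cervix it differed from them: D21 rats lay above NP rats for Cd4, while the rats overlapped for Csf1r and Adgre1. In whole cervix it was at 0.40, -0.05 and 0.30 in D21 rats and at -0.44, -0.56 and -0.47 in NP rats. In depleted cervix it lay between -6.33 and -5.24 in all 6 rats and was never well above background, so that the signal of whole cervix was higher by a factor of at least 30.2 in D21 rats (adjusted p = 1.2e-06) and of at least 15.2 in NP rats (adjusted p = 7.6e-07). The fitted differences were 6.41 and 5.41, and with normexp they were 2.24 (adjusted p = 0.061) and 2.62 (adjusted p = 0.0083), again less than the bounds but both called. Of 12 T cell markers, Cd4 itself among them, 5 could be tested in D21 rats and 4 in NP rats, and Cd4 was the only one called in either. In each whole sample 5 to 7 of the 12 markers, Cd4 included, were well above background. The T cell receptor chain Cd3e and the T cell antigens Cd5 and Cd28 were not, on any of the 12 arrays. They are named for that reason, and the detected markers other than Cd4 are not named. Without Cd4, the markers tested had median differences of 1.14 in D21 rats and 0.69 in NP rats, and none was called. The summed level of the T cell list was 1.52 to 2.11 in whole cervix and 0.41 to 1.19 in depleted cervix. With Cd4 left out the ranges were 0.75 to 1.24 and 0.40 to 1.17, and they overlapped through NP rat 7 alone. In that sample 1 of the 12 markers was well above background. In the other depleted samples the full list summed to 0.41 to 0.57.

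Cd53 was at 0.09, 0.49 and -0.07 in whole cervix of D21 rats and at 1.36, 0.62 and 1.75 in NP rats. After depletion it was at -5.26, -4.80 and -5.11 in D21 rats, with 1 of 3 arrays well above background, and at -4.93, -3.95 and -5.15 in NP rats, with 2 of 3. Whole cervix was higher by 5.23 (SE 0.37, adjusted p = 1.2e-05) and by 5.92 (SE 0.37, adjusted p = 1.8e-06), and no depleted sample reached a whole one. With normexp the differences were 1.98 (adjusted p = 0.072) and 3.94 (adjusted p = 0.00035), both called. Among 15 other tetraspanins on the array, 3 of 15 tested were called higher in whole cervix in D21 rats and 7 of 14 in NP rats, where Tspan1 was called lower. Their median differences were 0.67 and 0.97. Cd37, another leukocyte tetraspanin, was higher by 4.12 (adjusted p = 0.00012) and 5.18 (adjusted p = 5.9e-06).

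Tyrobp and Aif1 fell far but stayed above background in all 12 rats. Tyrobp was at 3.63, 3.78 and 3.37 in whole cervix of D21 rats and 4.50, 3.21 and 5.03 in NP rats, and after depletion at -0.76, 0.23 and -2.34 and at -0.82, -1.08 and -2.13. Aif1 was at 3.28, 3.35 and 3.22 in whole cervix of D21 rats and at 4.06, 3.42 and 4.56 in NP rats, and after depletion at -1.16, 0.11 and -1.69 and at -0.72, -0.94 and -1.42. For both genes the depleted cervix of D21 rat 2 was the highest of the depleted samples. Whole cervix was higher for Tyrobp by 4.55 (SE 0.63, adjusted p = 0.0011) in D21 rats and by 5.59 (SE 0.63, adjusted p = 6.8e-05) in NP rats, and for Aif1 by 4.20 (SE 0.43, adjusted p = 0.00016) and by 5.04 (SE 0.43, adjusted p = 1.1e-05). The second Aif1 probe gave 3.75 and 5.32. By the methods' t-test neither Tyrobp nor Aif1 was called in D21 rats, and both were in NP rats.

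Genes that work with Tyrobp went the same way. Of 18 partners and signalling genes on the array, 13 could be tested in each comparison. Of these, 9 were called higher in whole cervix in D21 rats and 10 in NP rats, with median differences of 3.102 and 3.53. Only 5 of the 18 met the background filter in either depleted group. Most of the genes tested therefore entered through whole cervix alone, and the counts describe them and are no support. Trem2, a receptor that pairs with TYROBP, was higher by 4.02 (adjusted p = 0.0016) and 4.96 (adjusted p = 0.00011), and Fcer1g, the related adaptor of Fc receptors, by 4.39 (adjusted p = 7.7e-05) and 5.13 (adjusted p = 5.7e-06). Syk, the kinase that TYROBP recruits, did not go with them: it was at -0.18 in D21 rats, not called, and was called lower in whole cervix of NP rats, by -1.16 (adjusted p = 0.022).

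The receptors of the other colony stimulating factors did not share one pattern. Csf3r was at -3.20, -3.18 and -3.33 in whole cervix of D21 rats and at -1.68, -3.11 and -1.37 in NP rats, and no depleted sample was well above background. The bound on the factor by which whole cervix was higher was at least 2.76 in D21 rats (adjusted p = 0.014) and at least 5.15 in NP rats (adjusted p = 0.0021). With slide as a block the difference in D21 rats was 1.05 on the log2 scale and no longer called, and with normexp background correction neither comparison was called, at 0.21 and 1.51. The methods' t-test called it in neither comparison either. Leaving out 1 rat at a time kept the call in D21 rats, with differences of 2.15 to 3.15. Of 12 neutrophil markers, 5 could be tested in D21 rats and 4 in NP rats. Csf3r was called in both, and the ficolin gene Fcnb was called in D21 rats alone, where depleted cervix was below background and the bound was 23.4-fold (adjusted p = 0.016). In NP rats Fcnb was well above background in 2 of 3 whole samples and was not tested. Csf3r is itself on that list. The summed level of the neutrophil list in D21 rats was 1.54 to 3.67 in whole cervix and 0.43 to 0.75 in depleted cervix. In NP rats it was 1.97 to 13.0 and 0.65 to 6.85, and these ranges overlapped through depleted NP rat 6 alone. In each whole sample 4 to 7 of the 12 markers were well above background, while Ltf, Camp and Ngp were not above background in any group.

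Csf2ra was called in neither comparison. It was at 0.93, 0.77 and 0.82 in whole cervix of D21 rats and at 0.22, 1.12 and 0.12 after depletion, a difference of 0.35 (95% CI -0.41 to 1.12, adjusted p = 0.48). In NP rats it was at 0.94, 0.32 and 1.61 in whole cervix and at -0.16, 0.27 and 0.04 after depletion, a difference of 0.91 (95% CI 0.14 to 1.67, adjusted p = 0.066) that was not called although the groups did not overlap. Without NP rat 9 of whole cervix the difference was 1.23 and was called (adjusted p = 0.021), and with weights for the arrays it was also called (adjusted p = 0.0078). The array files give no rn4 position for this probe.

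Csf2rb, the signalling chain of the GM-CSF receptor, could not be tested in any comparison. It was well above background in 2 of 3 whole samples of D21 rats, at -3.27 and -3.76, with the other at -4.12, in 1 of 3 whole samples of NP rats, at -3.34 in rat 10, and in 1 of 6 depleted samples, at -5.23 in NP rat 5. The depleted samples of D21 rats lay at -7.42, -6.98 and -4.38, below the whole ones and not above background.

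Csf1, the ligand, was measured by 1 probe printed at 10 spots of the array, and 9 or 10 of these entered the mean. Their SD on an array was 0.04 to 0.25 on the log2 scale. In whole cervix the level was 0.55, 0.29 and 0.18 in D21 rats and 0.62, 0.30 and 0.69 in NP rats. After depletion it was -0.54, 0.30 and 0.16 in D21 rats 1, 2 and 4, overlapping with whole cervix, and -1.09, -0.47 and -1.39 in NP rats 5, 6 and 7, all lower than any whole sample. The difference was 0.37 in D21 rats (95% CI -0.29 to 1.03, adjusted p = 0.38) and 1.52 in NP rats (95% CI 0.87 to 2.17, adjusted p = 0.0027), so Csf1 was called in NP rats and not in D21 rats. By the methods' t-test it was called in neither (adjusted p = 0.094 in NP rats). The difference between these 2 changes was -1.15 (SE 0.42), with an adjusted p of 0.18, and was not called.

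Smooth muscle and fibroblast markers were called higher in whole cervix in part in D21 rats, where Csf1 was not, and nearly all in NP rats, where it was. Of 10 smooth muscle markers, 5 of 9 tested were called higher in whole cervix of D21 rats, with a median of 2.08, and 9 of 9 in NP rats, with a median of 4.42. Of 10 fibroblast markers, 4 were called in D21 rats, with a median of 1.45, and 9 in NP rats, with a median of 4.15. The summed level of the fibroblast list was 454 to 687 in whole cervix, 325 to 485 in depleted cervix of D21 rats and 17.4 to 61.5 in depleted cervix of NP rats. The smooth muscle list summed to 281 to 646 in whole cervix, to at most 156 in depleted D21 cervix and to 21.8 to 28.5 in depleted NP cervix. Of 10 epithelial markers, 4 were called lower and 1 higher (Cldn7) in whole cervix from D21 rats, against 6 lower and none higher in NP rats. None of 8 housekeeping genes was called in either comparison. Endothelial markers were called higher in whole cervix for 3 of 10 tested in D21 rats and 2 of 9 in NP rats, with 1 called lower there. The part of these cells in the values of Csf1 was not tested.

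Of the other ligands and receptor subunits of the family, 9 on the array, 3 could be tested: Il34, the second ligand of CSF1R, Il3ra and Csf3. None was called in D21 rats, where their median was -0.67. In NP rats Csf3, the ligand of CSF3R, was called lower in whole than in depleted cervix, at -1.44 (adjusted p = 0.0092), and it was at -1.01 (adjusted p = 0.060) in D21 rats. Csf2, Il3 and Il5 were below that rating in each of the whole samples.

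Signalling genes downstream of CSF1R and its relatives were mostly not called. Of 24 on the array, 1 of 20 tested was called higher and 1 lower in whole cervix of D21 rats, and 2 of 19 were called higher and 4 lower in NP rats, with medians of 0.29 and -0.35. In D21 rats the docking protein gene Dok2 was higher by 2.31 (adjusted p = 0.019), and Cbl, a ubiquitin ligase that turns over CSF1R, was lower in whole cervix, at -1.35 (adjusted p = 0.026). In NP rats Dok1 was higher by 1.21 (adjusted p = 0.0045) and Socs1 by 1.62 (adjusted p = 0.0064). Those called lower in NP rats were Cish and Socs3, feedback inhibitors of cytokine signalling, Pik3r1 and Sos1, at -2.23 to -1.06.

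Among 15 myeloid transcription factors, 10 of them tested in each comparison, Spi1 was the only one called higher in whole cervix. It encodes PU.1, a regulator of the Mφ programme, and was higher by 3.52 (adjusted p = 0.00050) in D21 rats and by 3.65 (adjusted p = 9.1e-05) in NP rats. In NP rats 2 of the factors were called lower in whole cervix, among them Runx1 at -1.76 (adjusted p = 0.024), and in D21 rats none was. The other adhesion G protein-coupled receptors had no common direction: 1 of 8 tested was called higher (Adgre5) and 1 lower (Adgrl2) in D21 rats, and of 9 tested in NP rats 3 were called higher (Adgrb2, Adgre4 and Adgrl4) and 3 lower (Adgrg1, Adgrg6 and Adgrl2). Adgre4, of the same subfamily as Adgre1, was well above background in all 3 whole samples of NP rats and in no depleted one, at least 3.90-fold higher in whole cervix (adjusted p = 0.0036), and in D21 rats it could not be tested.

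Cd4 binds MHC class II, and a list of relatives, partners and ligands of Cd4 was called nearly as a whole. Of 9 genes of that list on the array, 6 of 7 tested were called higher in whole cervix in D21 rats and 6 of 6 in NP rats, with medians of 4.46 and 3.81. The class II chains and Cd74 make up 5 of the 9, and each of the 4 tested was called, in D21 and in NP rats. The class II chain RT1-Da was higher by 4.70 (adjusted p = 1.5e-05) and 4.57 (adjusted p = 5.0e-06), the invariant chain Cd74 by 4.12 (adjusted p = 0.00010) and 3.30 (adjusted p = 9.2e-05), and the leukocyte antigen Ptprc (CD45) and the cytokine Il16 were called in both.

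**Figure D3:**
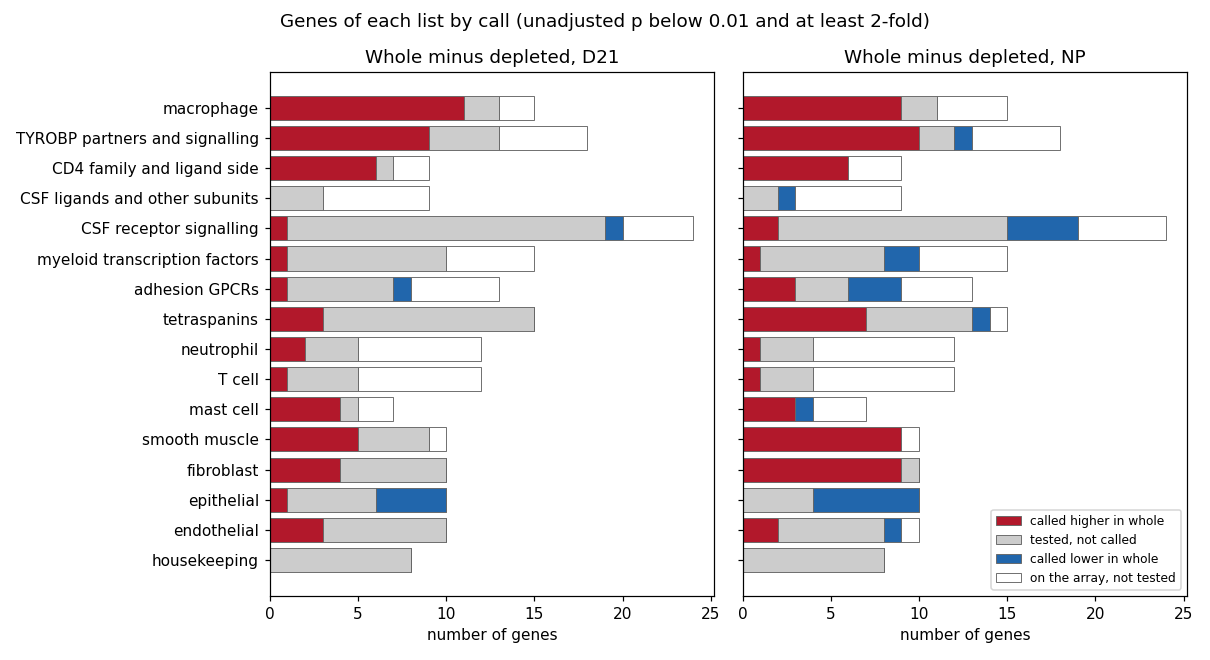
Number of genes of each list (horizontal axis) called higher in whole cervix, not called, called lower, or on the array but not tested, in D21 rats and in NP rats. The Mφ list (11 of 13 and 9 of 11 tested called higher), the partners of Tyrobp and the CD4 list are mostly called higher, while the CSF receptor signalling genes are mostly not called. Many genes tested of the Mφ list and of the partners of Tyrobp met the background filter in whole cervix alone.

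Not all Mφ markers went with Csf1r and Adgre1. Of 15, 11 of 13 tested were called higher in whole cervix of D21 rats and 9 of 11 in NP rats, with medians of 4.55 and 5.13. Only 6 of the 15 met the background filter in either depleted group, so many of those tested entered through whole cervix alone. The list includes Csf1r, Adgre1, Aif1 and Tyrobp themselves, and without these 4 it had 7 of 9 called in D21 rats, with a median of 4.04, and 5 of 7 in NP rats, with a median of 4.88. Its summed level without them was 41.3 to 59.0 in whole cervix and 4.44 to 14.6 in depleted cervix. The complement genes C1qa, C1qb and C1qc, the mannose receptor Mrc1 and Siglec1 were called in both. Cd68 and Cd14 were the exceptions and are named after their values were seen. Cd68, which encodes the antigen of ED1, was well above background in all 12 rats, with whole minus depleted cervix at -0.15 (adjusted p = 0.88) in D21 rats and 0.54 (adjusted p = 0.53) in NP rats. Some markers of other leukocytes were also called. Of 7 mast cell markers, 4 of 5 tested were called higher in whole cervix of D21 rats and 3 of 4 in NP rats, among them the carboxypeptidase Cpa3, while the receptor Kit was called lower in whole cervix of NP rats, at -2.08 (adjusted p = 0.0086). Flt3 was the only dendritic cell marker that could be tested and was called higher in both, at least 2.00-fold in D21 and 3.19-fold in NP rats. Siglec5, of the eosinophil list, was called in D21 rats, at least 2.90-fold higher. None of the B cell markers tested, 2 and 1, was called.

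Counted over the 10 genes, 9 could be tested in each depletion comparison, and 7 were called higher in whole cervix of D21 rats and 8 in NP rats, none lower. At the study's threshold the methods' t-test called 4 in D21 rats, without Tyrobp, Aif1 and Csf3r, and 6 in NP rats, without Csf1 and Csf3r. Of all genes tested, 10% were called higher in D21 rats and 13.6% in NP rats. The median difference of the tested genes was 4.55 in D21 and 5.41 in NP rats. For Csf1r, Adgre1, Cd4, Cd53 and Csf3r only whole cervix met the background filter. These 5 entered the test through the group where they were high, so the counts describe them and are no support. The same holds for every list gene that met the filter in whole cervix alone. The groups were apart, with whole cervix higher, for 7 and for 9 of the genes tested, where 21.3% and 23% of all genes did so.

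Whether the change with depletion differed between D21 and NP rats was tested for 9 of the genes with limma's interaction term. None differed at an adjusted p of 0.05, 2 had an unadjusted p below 0.05 (Csf1 and Cd4), and 2.4% of all genes passed. The Cd4 term rests on depleted values below background, so its unadjusted p is not read as a difference. For Csf1r the change in D21 rats minus that in NP rats was 0.06 (95% CI -1.22 to 1.34), an interval that leaves room for a difference of more than 2-fold. It rests on depleted samples of which 1 of 3 in each state was well above background. Adgre1, Cd4 and Csf3r were below background in every depleted sample, so the sizes of their changes are bounds and no difference between them is given.

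The slides and scan days cut across the groups in part. In D21 rats no slide held both whole and depleted samples, so within that state depletion and slide cannot be told apart. Depleted D21 rats 1 and 2 and depleted NP rats 5 and 6 were scanned on earlier days than all other samples. Within the day on which all whole samples and 1 depleted sample of each kind were scanned, Csf1r was higher in whole cervix by 7.54 in D21 rats and 6.43 in NP rats, and Adgre1 by 6.47 and 6.11. On the slide that held whole NP rats 8 and 9 with depleted NP rat 7, the differences were 6.24 and 5.92. Cd4, Cd53, Tyrobp and the first Aif1 probe also kept differences of 4.74 or more within that day and that slide, Csf3r gave 1.83 to 2.17, and Csf1 gave 0.18 in D21 rats against 1.92 in NP rats within the day. Each of these differences rests on 1 depleted sample, D21 rat 4 or NP rat 7. In both, Csf1r, Adgre1, Cd4, Cd53 and Csf3r were not well above background, so the sizes given for them are not measured. The lowest signal rated well above background was -3.72 in D21 rat 4 and -2.93 in NP rat 7.

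**Figure D4:**
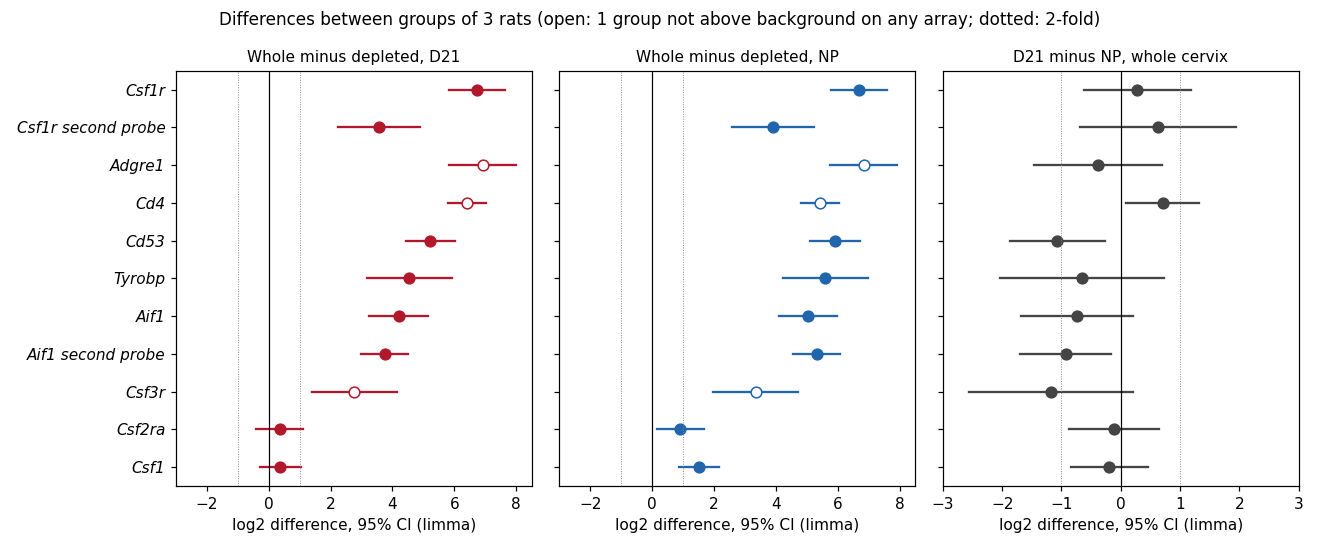
Differences in log2 level with 95% confidence intervals from limma (horizontal axis) for the genes and probes tested, for whole minus Mφ-depleted cervix, with D21 rats and NP rats apart, and for D21 minus NP in whole cervix. Open points have 1 group below background on every array, and dotted lines mark 2-fold. Intervals for Csf1r, Adgre1, Cd4, Cd53, Tyrobp and Aif1 lie past 2-fold with depletion, while those for D21 minus NP all reach within 2-fold.

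Pregnancy itself was examined in whole cervix. None of the 10 genes was called in either direction between D21 and NP rats, where 8.47% of all genes were. Slide as a block gave 2 calls (Csf3r and Cd53) and weights for the arrays gave 3 (these and Tyrobp), all lower in D21 rats. Of the 9 tested, 2 had an unadjusted p below 0.05 by limma. For Csf1r the difference was 0.27 (95% CI -0.63 to 1.18, adjusted p = 0.73), and for Adgre1 it was -0.38 (95% CI -1.46 to 0.70, adjusted p = 0.69). These intervals allow a change of somewhat more than 2-fold for either receptor, and the rats overlapped. The groups did not overlap for 4 of the genes, Cd4, Cd53, Aif1 and Csf3r, against 44.2% of all genes.

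The 4 genes did not go one way. Cd4 was higher in D21 rats by 0.71 (95% CI 0.09 to 1.32, adjusted p = 0.17). Cd53 was lower in D21 rats by -1.07 (95% CI -1.87 to -0.26, adjusted p = 0.11), Aif1 by -0.73 (95% CI -1.68 to 0.21, adjusted p = 0.34) and Csf3r by -1.18 (95% CI -2.57 to 0.20, adjusted p = 0.29). The second Aif1 probe gave -0.93 (95% CI -1.70 to -0.17, adjusted p = 0.14), not called. For Cd53, leaving out NP rat 9 of whole cervix, the lowest of its group, gave -1.38 (adjusted p = 0.052) and a call. With slide as a block, which compares the 3 D21 rats with NP rat 10 on their shared slide, Cd53 was at -1.57 and called (adjusted p = 0.19), Csf3r at -1.87 and called (adjusted p = 0.16), and Csf1r at -0.09 and not called. Cd163, a scavenger receptor and Mφ marker, was called higher in D21 rats, at 3.61 (adjusted p = 0.0044), with 2 of 3 NP samples well above background, and it was the only one called of 13 Mφ markers tested. None of 13 partners of Tyrobp was called, while 8 of 10 epithelial markers were called higher and 3 of 9 smooth muscle markers lower in D21 rats.

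In Mφ-depleted cervix 4 of the genes could be compared between D21 and NP rats, Csf1, Csf2ra, Tyrobp and Aif1, and none was called, against 7.52% of all genes. Csf1 came nearest: D21 rats were higher by 0.95 (95% CI 0.30 to 1.61, unadjusted p = 0.0080 by limma, adjusted p = 0.10), just short of 2-fold, and D21 rat 1 overlapped with the NP rats. It was called with slide or scan day as a block, at 1.28 in both (adjusted p = 0.063 and 0.039), and at 1.21 without D21 rat 1 or without NP rat 6. In the same comparison 8 of 10 fibroblast markers and 5 of 8 smooth muscle markers were called higher in D21 rats, with medians of 2.78 and 1.26. The other 3 gave 0.11 to 0.44, and Csf1 alone had an unadjusted p below 0.05. Cd4 was below background in all of these rats, while 4 of the 5 genes tested of its list were called lower in D21 than in NP depleted cervix. These were Cd74 (-1.59, adjusted p = 0.041), RT1-Da (-1.27, adjusted p = 0.061), RT1-Bb (-1.41, adjusted p = 0.027) and RT1-Db1 (-1.73, adjusted p = 0.014).

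The genes whose profile over the 12 rats was nearest to Csf1r and to Adgre1 were found among 12265 genes well above background in all 6 whole samples, by the root mean square difference of log2 levels after each gene's mean was taken off. For Csf1r the nearest were Fcrl2 at 0.57, Cd4 at 0.66, Pld4 at 0.68, C1qc at 0.70 and Lyz2 at 0.75. For Adgre1 they were Pld4 at 0.59, Cd4 at 0.77, Csf1r at 0.83, the C-type lectin gene Clec4a3 at 0.88 and a transcript with no gene name at 0.90. Of the other genes studied, Csf1 and Csf2ra lay farthest from both, at 2.97 and 3.09 for Csf1r and 3.07 and 3.21 for Adgre1. These distances rest mostly on the step between whole and depleted cervix, and they use depleted values that were well above background in 2 of 6 samples for Csf1r and in none for Adgre1 and Cd4. The order among near genes is therefore not settled, and the distances carry no test.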

How the data were processed

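RNA from dispersed cervix cells of 12 rats, 3 in each of 4 groups, was read on 1-colour Agilent arrays (Feature Extraction 9.5.3.1, per the submitters' processing notes). The authors deposited the processed intensity of each spot, background-subtracted and not normalized between arrays, and a table in which the deposited values are a ratio of each intensity to the 75th percentile of its array. The table served as an alternative only.

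Control and outlier spots (294 to 648 on an array) were left out, spots of a probe were averaged, and log2 intensities were set relative to each array's own 75th percentile. Probes were named by RefSeq accession where it matched (17328 of 30367, 57.1%) and by the array file otherwise. The brightest probe stood for a gene in the fit, and second probes were taken from a fit of all probes. The group means of all 12 arrays were fitted with limma 3.58.1 in R 4.3.3 (lmFit, eBayes, no covariates), after a check on simulated data. p-values were adjusted by Benjamini-Hochberg over all genes tested. Python 3.11.15 with scipy 1.17.1 and matplotlib 3.10.9 was used for sequences, permutation tests and plots. The number of arrays limits the precision: 3 rats against 3 allow 10 splits and no exact p below 0.1.

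The 10 genes and the 19 gene lists (12 of cell types, 7 of pathways) were chosen with earlier results of these data known. Genes named were the 10, the 5 nearest to Csf1r and to Adgre1, and list genes called in at least 1 comparison, except where said. Some list genes are also named outside this rule. Cd3e, Cd5, Cd28, Ltf, Camp, Ngp, Csf2, Il3 and Il5 are named as not well above background in whole cervix. Il34 and Il3ra are named as tested and not called. Alternatives were the methods' t-test, an adjusted threshold, the 6 arrays compared, normexp (offset 50), quantile scaling, another percentile, other background filters, the mean of probes, a fit of all probes, weights for the arrays, blocks for slide or for scan day, the authors' ratios, and leaving out each rat. Some genes of the lists are not reported here by name.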

Additional observations from a re-analysis of the deposited data

How the results depend on the processing

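With the counts of called genes taken as 7 (D21) and 8 (NP) for whole against depleted cervix, the methods' t-test gave 4 (without Tyrobp, Aif1 and Csf3r) and 6 (without Csf1 and Csf3r) at the study's threshold. After adjustment it gave 2 in D21 rats, where Csf1r and Adgre1 were also lost, and 4 in NP rats, where Adgre1 and Cd4 were also lost. The filter that asks for every array compared left 2 and 3, since it removes genes that are dim after depletion. Leaving out 1 rat gave 7 to 7 in D21 rats and 8 to 9 in NP rats. For D21 against NP whole cervix, where none was called, array weights gave 3 (Tyrobp, Csf3r and Cd53) and slide as a block gave 2 (Csf3r and Cd53), and leaving out 1 rat gave 0 to 1 (Cd53, without NP whole rat 9 or NP depleted rat 6). For depleted cervix, slide or scan day as a block gave 1 each (Csf1), and leaving out 1 rat gave 0 to 1 (Csf1, without D21 depleted rat 1 or NP depleted rat 6). No alternative gave a gene whose depletion change differed between D21 and NP, and the t-test and the fits of 6 arrays have no such term.

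Of the values of single genes under the alternatives, 789 kept their direction and side of the threshold, 17 were no longer called, 13 became called and 8 changed sign, none of them a called value. These were Csf1r in D21 against NP whole cervix (-0.092, slide as a block), Csf2ra with depletion in D21 rats (-0.54, slide as a block) and in D21 against NP whole cervix (-0.43 to 0.21 over the rats left out, positive without NP whole rat 10), and Aif1 and Tyrobp in D21 against NP depleted cervix. Over the rats left out, Aif1 ranged from -0.40 to 0.50 and Tyrobp from -0.21 to 1.08, both negative without D21 depleted rat 2 or without NP depleted rat 7, and Aif1 was at -0.048 with the percentile taken over probes that all 12 arrays detected. That scaling moved the median of all genes from -0.06 to 0.13 for depletion in D21 rats and from 0.02 to -0.14 for D21 against NP depleted cervix.

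Normexp, which adds an offset to all intensities, gave smaller depletion changes for each of the genes called, and Csf3r alone lost its call. The cause of these and of the other shifts was not tested. No paired analysis was possible because the groups compared share no rat numbers.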
